A study of Mus musculus with 4 samples.

Results

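Mouse male germ cells make a set of kinases and phosphatases that are used mainly in spermatids and sperm, and 9 genes of this kind, taken by name, were followed among the 24411 genes measured. They encode the testis-specific serine kinases (*Tssk1*, *Tssk2*, *Tssk3*, *Tssk4* and *Tssk6*), the calmodulin-dependent kinase CaMKIV (*Camk4*), the PP1 catalytic subunit gamma (*Ppp1cc*) and both subunits of the sperm form of calcineurin (*Ppp3cc* and *Ppp3r2*). RNA came from GFP-positive cells sorted from testes at postnatal day 18 to enrich for meiotic prophase. Each of the 4 libraries came from 1 testis of a mouse of mixed C57BL/6 and CBA strain. The study's methods instead give a C57BL/6 background for the knockout mice and call the knock-in mice congenic with it. All 4 libraries carried Rec8-3FH-GFP KI, a knock-in allele written out as Rec8-3xFLAG-HA-p2A-GFP. In it, GFP is made from the locus of the meiotic cohesin subunit *Rec8*. The 2 control libraries were *Zfp541*+/-, 1 of them heterozygous and the other homozygous for the knock-in, and the labels do not say which is which. The 2 remaining libraries were labelled *Zfp541* KO, in which a run of *Zfp541* exons is deleted on both alleles, and were homozygous for the knock-in. They are called control 1, control 2, KO 1 and KO 2 here. The labels do not name litters, so p-values measure only the spread between these testes. The comparison asks which transcripts depend on ZFP541, a nuclear factor of pachytene spermatocytes.

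Sperm development relies on phosphorylation because transcription stops as the spermatid nucleus condenses, and proteins are then controlled mainly by modification. TSSK kinases act in the flagellum and chromatin of spermatids. In mature sperm, a testis splice form of PP1 gamma restrains motility, and calcineurin, a phosphatase switched on by calcium and calmodulin, pairs a catalytic A subunit with a calcium-binding B subunit and is needed for a flexible midpiece.

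The deposited values are TPM, which counts transcripts rather than reads and takes account of transcript length, so that levels of different genes can be compared. TPM keeps no depth, so the counting error of a value is unknown. Of the 24411 genes, 14512 had a mean of at least 1 TPM and were tested by limma on log2(TPM + 1), 7 of the 9 kinase and phosphatase genes among them. None of the 7 passed an FDR of 0.05, and the share of all tested genes that passed was 0%, with 2091 genes at an unadjusted p under 0.05 and a smallest adjusted p from limma of 0.310. Fold changes are the KO libraries minus the controls on the log2(TPM + 1) scale, on which the differences of lowly expressed genes come out too small. The targeted gene did not go with the labels: the TPM of *Zfp541* was 112 in control 1, 72.2 in control 2, 136 in KO 1 and 151 in KO 2, so it gives no check of the labels, and each direction below is given by label. Gene-level TPM does not separate the deleted exons from the others. The controls also stood apart. Their distance over all tested genes was 153 on the log2 scale, larger than the 111 to 133 between libraries of different groups, while the distance between the KO libraries was 49.2.

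The difference that stood out was in *Ppp3r2*, which encodes the testis form of the calcineurin B subunit and was far lower in both libraries labelled *Zfp541* KO. Its partner *Ppp3cc* and the PP1 gene *Ppp1cc* were abundant in all 4 libraries and slightly lower in the KO libraries. The TSSK genes and *Camk4* were at low levels everywhere. Over the 7 tested genes, 3 had both KO values below both control values (*Ppp3r2*, *Ppp3cc* and *Ppp1cc*), against 12.1% of all genes tested, and 2 had both above (*Tssk3* and *Tssk6*), against 38.6% of all genes tested. The values of *Tssk1* and *Tssk4* overlapped. *Tssk3* averaged 0.42 TPM in the controls and reached the mean of 1 TPM needed for testing through its KO values. Its place among the 7 and in the values below is therefore not independent of its direction. The median log2 fold change of the 7 genes was -0.36, whereas that of all tested genes was 0.28. At an unadjusted p under 0.05 from limma, 1 of the 7 was lower, where 3.73% of all tested genes were, and 0 of the 7 were higher, where 10.7% were.

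**Figure D1:**
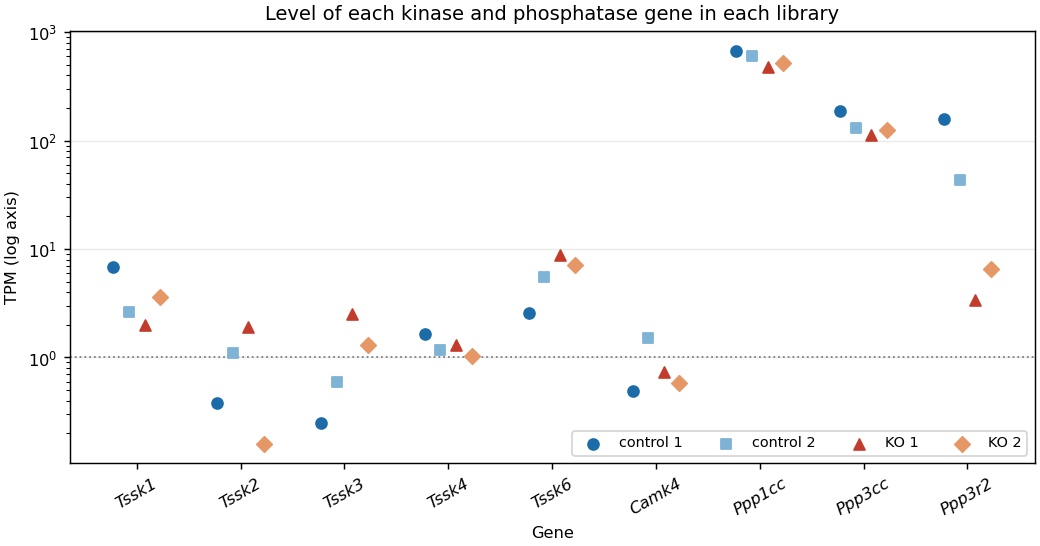
TPM of the 9 genes (vertical axis, log scale) in each of the 4 libraries; each point is 1 library, circles and squares are controls 1 and 2, and triangles and diamonds are KO 1 and 2. The dotted line marks 1 TPM. *Ppp1cc* lies between 474 and 673 TPM in all libraries, *Ppp3r2* separates the groups (43.6 and 160 TPM against 3.39 and 6.57 TPM), and the TSSK genes and *Camk4* stay under 10 TPM.

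*Ppp3r2* is a gene of 2 exons on chromosome 4 (GRCm38 4:49678747-49682024, minus strand) that lies within the span of *Grin3a*, on the same strand. It shares 0 of its 3026 exonic bases with *Grin3a* exons, and no 75-base stretch of its transcript, the length of a read here, occurs in a transcript of another gene. *Grin3a* itself was at 0.48, 0, 0.66 and 0.64 TPM in control 1, control 2, KO 1 and KO 2. The sequence just upstream of its start is shown because it precedes the transcript with the largest difference (RefSeq, GRCm38.p6, chr4:49682025-49682233, minus strand, written 5′ to 3′).

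Ppp3r2: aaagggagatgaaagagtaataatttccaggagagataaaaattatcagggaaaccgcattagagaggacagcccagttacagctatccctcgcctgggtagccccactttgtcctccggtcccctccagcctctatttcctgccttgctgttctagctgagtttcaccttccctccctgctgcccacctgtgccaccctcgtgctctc

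In the window from 250 bases before to 50 after the RefSeq start, *Ppp3r2* held none of the motifs searched on both strands, which were TGACGTCA (the cAMP response element, found in 1.79% of the 32851 promoter windows), TGACG (its first part, 20.8%) and TATAAA (13.6%).

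*Ppp3r2* was at 160 TPM in control 1, 43.6 TPM in control 2, 3.39 TPM in KO 1 and 6.57 TPM in KO 2. Both controls were above both KO libraries, and the lower control was 6.63-fold above the higher KO library. The controls themselves differed 3.67-fold. On the log2 scale the difference was -3.88 (SE 0.73), a 14.7-fold difference, with an unadjusted p of 0.00498 and an adjusted p of 0.310 from limma over all genes tested. It was the 19th lowest of the 14512 log2 fold changes. Relative to all genes, *Ppp3r2* stood at percentiles 90.9 and 71.6 of the tested genes in controls 1 and 2, and at 16.3 and 25.9 in KO 1 and 2. The summed markers of round spermatids ran in the same order, at 203, 101, 50.3 and 56.3 TPM in control 1, control 2, KO 1 and KO 2. Most of that sum came from *Acr* (118, 36.5, 18.0 and 21.9 TPM) and *Actl7b* (74.3, 47.8, 2.77 and 4.65 TPM), whereas *Spaca1* was higher in the KO libraries (7.34, 13.9, 27.0 and 26.6 TPM) and most other markers of the list were near 0. Some pachytene markers, among them *Pgk2* and *Ldhc*, ran in this order as well. The part of these markers in the difference was not tested. In bulk samples such as these, fewer cells of a type and less RNA per cell cannot be told apart. An exact permutation test of a single value with 2 against 2 libraries cannot give a p below 0.33.

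The difference in *Ppp3r2* kept its sign in each refit. It was -2.95 without control 1 and -4.80 without control 2, where limma gave adjusted p of 0.0128 and 0.0224. In those fits the remaining control has no replicate and is assumed to vary as little as the KO pair, although the controls differed more. Without KO 1 or KO 2, when the spread came from the controls, it was -3.48 and -4.27 with an adjusted p of 1 in both.

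The other B subunit gene, *Ppp3r1*, which is expressed in most tissues and whose protein is 80.6% identical to that of *Ppp3r2*, was at 42.6 and 48.1 TPM in controls 1 and 2 against 63.3 and 64.7 TPM in KO 1 and 2. All KO values were above the control values (log2 fold change 0.49, adjusted p = 0.363 from limma), where the median of all tested genes was 0.28. The difference depended on scaling, and its log2 fold change was 0.17 after median-ratio scaling and 0.26 after quantile normalization. As a share of the B subunit transcripts, *Ppp3r2* made up 78.9% and 47.5% in controls 1 and 2, and 5.09% and 9.22% in KO 1 and 2. In control 1 most B subunit TPM was therefore *Ppp3r2*, in control 2 it was close to even, and in both KO libraries nearly all of it was *Ppp3r1*. The 2 genes together summed to 202 and 91.7 TPM in the controls against 66.6 and 71.2 TPM in the KO libraries.

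*Ppp3cc*, the catalytic A subunit of the sperm enzyme (13 exons, GRCm38 14:70217865-70289471, minus strand), was at 187 TPM in control 1, 131 TPM in control 2, 113 TPM in KO 1 and 127 TPM in KO 2. Both KO values were below both control values, but control 2 and KO 2 were only 1.04-fold apart. The log2 fold change was -0.38 (SE 0.25, adjusted p = 0.514 from limma), a 1.3-fold difference that is smaller than the 1.42-fold gap between the controls. It was -0.13 without control 1 and -0.63 without control 2 (adjusted p = 0.395 and 0.0354 from limma, with the lone control assumed to vary like the KO pair). An antisense transcript, *Gm49417*, overlaps it and shares 1.05% of its 75-base stretches. Whether the counting used the strand is not given in the sources used here.

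Within the A subunits, *Ppp3cc* made up 60.3% and 65.4% of the TPM in controls 1 and 2 against 54.4% and 55.9% in KO 1 and 2, so it was the main A subunit transcript in every library. *Ppp3cb* was at 38.8 and 35.0 TPM in the controls against 54.2 and 52.1 TPM in the KO libraries, which were both higher (0.52, adjusted p = 0.360 from limma). Its log2 fold change was 0.20 after median-ratio scaling. *Ppp3ca* was at 84.0, 34.3, 40.6 and 47.8 TPM in control 1, control 2, KO 1 and KO 2, so its groups overlapped. The *Ppp3cc* protein is 77.4% identical to that of *Ppp3ca* and 77.6% to that of *Ppp3cb*. The A and B subunits of the sperm enzyme thus did not keep one ratio across libraries. TPM of *Ppp3cc* was 1.17 and 3.01 times that of *Ppp3r2* in controls 1 and 2, and 33.4 and 19.3 times in KO 1 and 2.

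**Figure D2:**
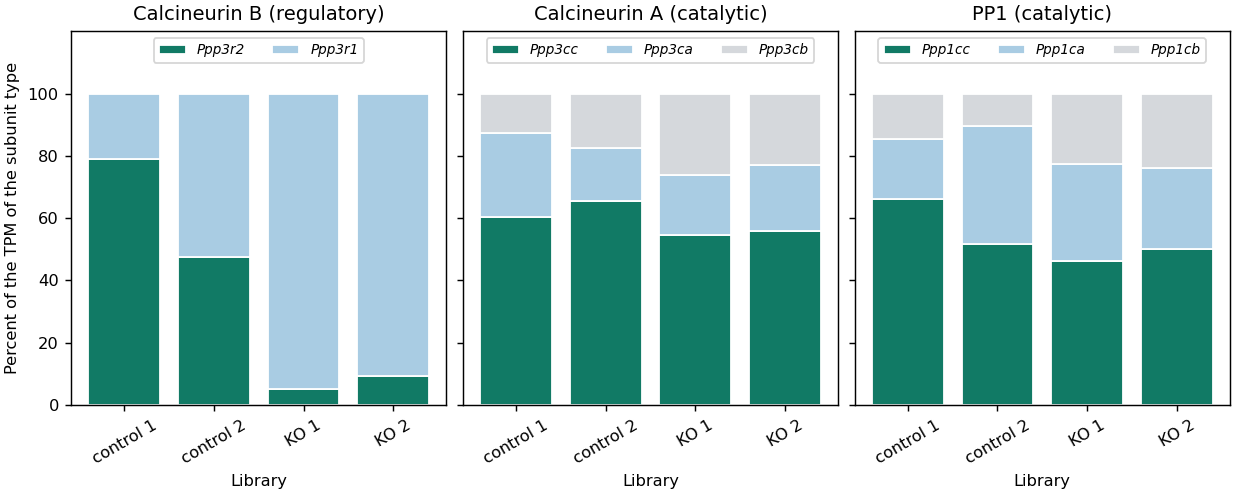
Share of TPM (percent, vertical axis) that each gene takes of its subunit type in each of the 4 libraries, for the calcineurin B genes, the calcineurin A genes and the PP1 catalytic genes; green marks the 3 sperm phosphatase genes followed here. *Ppp3r2* takes 78.9% and 47.5% of calcineurin B in the controls and 5.09% and 9.22% in the KO libraries, whereas *Ppp3cc* stays between 54.4% and 65.4% of calcineurin A.

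A list of 14 other calcineurin genes, all tested, had 0 genes past an FDR of 0.05 in limma and 4 at an unadjusted p under 0.05, 3 of them higher. In 8 of them both KO values were above both control values, where 38.6% of all tested genes were, and in 1 both were below, where 12.1% were. Their median log2 fold change was 0.60, above the 0.28 of all tested genes. *Akap5*, among the 8, averaged 0.81 TPM in the controls and 1.9 TPM in the KO libraries. It reached the mean needed for testing through its KO values, so its presence there is not independent of its direction. After median-ratio scaling 7 of the 14 were higher and 1 lower, where 23.1% and 22.3% of all tested genes were. The highest was *Rcan3*, a calcineurin inhibitor, at 5.89 and 9.16 TPM in the controls against 21.4 and 23.1 TPM in the KO libraries (1.47, adjusted p = 0.310 from limma). The lowest was *Spata33*, which tethers sperm calcineurin to mitochondria, at 684 and 482 TPM in the controls against 265 and 356 TPM in the KO libraries (-0.90, adjusted p = 0.324 from limma). The inhibitor gene *Cabin1* was at 36.2 and 30 TPM in the controls against 65.4 and 75.0 TPM in the KO libraries, and it was picked out after its values were seen.

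*Ppp1cc* was the most abundant of the 9 genes in each library. It lies on chromosome 5 (GRCm38 5:122158278-122175273, plus strand), and it was at 673 TPM in control 1, 610 TPM in control 2, 474 TPM in KO 1 and 523 TPM in KO 2, between percentiles 98.1 and 98.8 of the tested genes. Both KO values were below both control values. The log2 fold change was -0.36 (SE 0.21, adjusted p = 0.479 from limma), or 1.28-fold. Of the 75-base stretches of its transcript, 55.2% also occur in other genes, most of them in the pseudogene *Ppp1ccb*, which has no value in the files, so its level is uncertain. The gene-level TPM does not separate the ubiquitous splice form from the testis form.

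The other PP1 catalytic genes encode proteins 90.3% (*Ppp1ca*) and 89.4% (*Ppp1cb*) identical to that of *Ppp1cc*. *Ppp1cb* was at 148 and 124 TPM in controls 1 and 2 against 233 and 249 TPM in KO 1 and 2, both KO values being higher (0.82, adjusted p = 0.310 from limma). *Ppp1ca* was at 197 and 446 TPM in the controls against 320 and 271 TPM in the KO libraries, with both KO values between the controls. *Ppp1cc* took 66.1% and 51.7% of the PP1 catalytic TPM in the controls against 46.2% and 50.2% in the KO libraries. The gap between control 2 and KO 2 was small, and it was the largest PP1 transcript in all 4 libraries.

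Of 13 other PP1 genes, all tested, 0 passed an FDR of 0.05 in limma and 5 were at an unadjusted p under 0.05, 4 of them lower. In 4 of the 13 both KO values were below both control values (12.1% of all tested genes) and in 5 both were above, close to the 38.6% of all tested genes, with a median log2 fold change of 0.016. After median-ratio scaling 6 of the 13 were lower, where 22.3% of all tested genes were, and 3 higher, close to the 23.1% share. *Ppp1cb* was the highest. The lowest was *Ppp1r32*, a regulatory subunit gene, at 27.1 and 9.66 TPM in the controls against 1.11 and 1.94 TPM in the KO libraries (-2.80, adjusted p = 0.310 from limma). The other 3 lower genes were named after their values were seen. *Ppp1r36* was at 124 and 44.6 TPM in the controls against 14.9 and 16.7 TPM in the KO libraries, and *Ppp1r42* at 46.4 and 16.2 TPM in the controls against 3.73 and 4.99 TPM in the KO libraries. In both genes, as in *Ppp3r2*, control 1 was the highest library and control 2 lay between it and the KO pair. *Ppp1r11*, which encodes a PP1 inhibitor, was at 223 and 226 TPM in the controls, which were close together, and at 113 and 107 TPM in the KO libraries (-1.03, adjusted p = 0.310 from limma).

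The 5 TSSK genes summed to 11.7 and 10.9 TPM in controls 1 and 2 against 16.6 and 13.3 TPM in KO 1 and 2, a total far under that of *Ppp3cc* alone. No TSSK gene was above percentile 30.9 of the tested genes in any library. *Tssk1* and *Tssk2* encode closely related kinases (75.8% identical, against 43.0% to 51.1% for the other TSSK pairs) that phosphorylate the substrate TSKS, and they lie head to tail on chromosome 16 with 714 bases between them. *Tssk1* (GRCm38 16:17894223-17897922, plus strand) is a single-exon gene inside *Dgcr2*, which runs on the other strand, and *Tssk2* (16:17898637-17900024, plus strand) also has 1 exon. They share 75 of their 75-base stretches, which is 2.07% of those of *Tssk1* and 5.71% of those of *Tssk2*. The sequences upstream of their starts are shown to set the pair side by side (RefSeq, GRCm38.p6, plus strand, 5′ to 3′, chr16:17894123-17894202 for *Tssk1* and chr16:17898557-17898636 for *Tssk2*), with capitals at each match to TGACNTCA on either strand.

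Tssk1: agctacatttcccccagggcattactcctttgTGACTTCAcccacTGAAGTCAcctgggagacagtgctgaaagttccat

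Tssk2: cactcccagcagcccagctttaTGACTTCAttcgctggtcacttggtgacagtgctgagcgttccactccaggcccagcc

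TGACNTCA is the cAMP response element TGACGTCA loosened to allow any base after TGAC, so each TGACGTCA match is also one of its matches. It was picked after the sequences were seen. The matches marked here read TGACTTCA or its reverse complement, and none is the cAMP response element itself. *Tssk1* holds TGACNTCA at 48 and 35 bases and *Tssk2* at 58 bases before the RefSeq start. It occurs in 8.83% of the 32851 promoter windows of 300 bases and in 2 of the 7 genes matched to that table. TGACG was found in 1 of the 7 (*Tssk6*), and TGACGTCA and TATAAA in 0 of the 7. *Camk4* and *Ppp3cc* are the genes not matched.

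*Tssk1* was at 6.81 TPM in control 1, 2.6 TPM in control 2, 1.99 TPM in KO 1 and 3.61 TPM in KO 2. KO 2 lay between the controls, so the groups overlapped (-0.51, SE 0.57, adjusted p = 0.692 from limma). *Tssk2* was at 0.38 TPM in control 1, 1.10 TPM in control 2, 1.92 TPM in KO 1 and 0.16 TPM in KO 2. The KO libraries held both its highest and its lowest value, and with a mean of 0.89 TPM it was not tested. In a fit with no filter on low values its log2 fold change was 0.11 (adjusted p = 0.941 from limma). The neighbouring pair thus had different orders of libraries, both with groups that overlap.

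*Tssk3* (GRCm38 4:129489014-129491022, minus strand), a kinase activated by PDPK1 in the test tube, was at 0.25 TPM in control 1, 0.59 TPM in control 2, 2.51 TPM in KO 1 and 1.3 TPM in KO 2. Both KO values were above both control values (1.01, SE 0.44, adjusted p = 0.383 from limma). Both controls were under 1 TPM, and the gene reached the mean of 1 TPM needed for testing through its KO values, so its presence among the tested genes is not independent of its direction. *Tssk4* (14:55650184-55652539, plus strand), a kinase of the sperm flagellum, was between 1.04 and 1.65 TPM in all 4 libraries, at 1.65 and 1.2 TPM in controls 1 and 2 against 1.31 and 1.04 TPM in KO 1 and 2. Its groups overlapped (-0.14, SE 0.39, adjusted p = 0.885 from limma).

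*Tssk6* (GRCm38 8:69902184-69903518, plus strand), needed for histone replacement in spermatids, was the only TSSK gene above 5 TPM in both KO libraries. It was at 2.56 TPM in control 1, 5.49 TPM in control 2, 8.83 TPM in KO 1 and 7.14 TPM in KO 2. Both KO values were above both control values (0.90, SE 0.47, adjusted p = 0.437 from limma), and the log2 fold change was 0.46 without control 1 and 1.33 without control 2 (adjusted p = 0.194 and 0.0384 from limma, with the lone control assumed to vary like the KO pair). Its 5′ part overlaps *Ndufa13* on the other strand, which shares 23.9% of the 75-base stretches of *Tssk6*. If the counting ignored strand, reads from the pair cannot be told apart there. *Ndufa13* was at 128, 234, 139 and 125 TPM in control 1, control 2, KO 1 and KO 2. The part of its reads in the values of *Tssk6* was not tested.

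Scaling changed which TSSK genes overlapped between groups, while the log2 fold changes of the 4 tested TSSK genes kept their sign. Median-ratio scaling moved the median of all genes from 0.28 to -0.0044. *Tssk3* stayed higher in the KO libraries, *Tssk6* overlapped between groups and *Tssk4* had both KO values below both control values. After quantile normalization *Tssk1* and *Tssk4* were lower in both KO libraries and *Tssk3* and *Tssk6* overlapped. *Ppp3r2*, *Ppp3cc* and *Ppp1cc* were lower in the KO libraries under each of the scalings, and *Ppp3r2* was at -4.17 and -4.12 with median-ratio scaling and quantile normalization. The split of all tested genes moved as well, from 1757 lower and 5599 higher without overlap to 3232 lower and 3355 higher after median-ratio scaling, and 2815 lower and 4033 higher after quantile normalization.

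**Figure D3:**
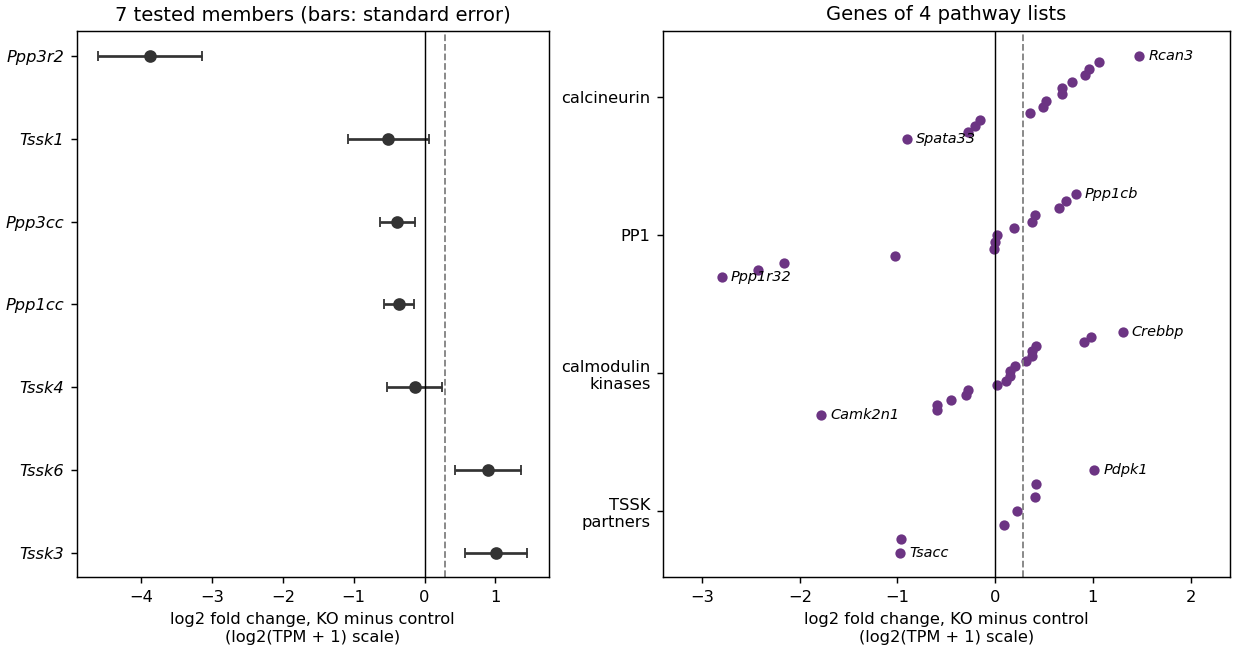
Log2 fold change, KO minus control on the log2(TPM + 1) scale (horizontal axes), of the 7 tested genes with standard errors from limma (left) and of the tested genes in 4 pathway lists, with the highest and lowest of each list named (right). The dashed line is the median of all tested genes, 0.28. *Ppp3r2* lies at -3.88 and the other 6 genes between -0.51 and 1.01; no gene passed an FDR of 0.05.

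Of 8 listed partners and substrates of the TSSK kinases, 7 were tested, 0 passed an FDR of 0.05 in limma and 2 were at an unadjusted p under 0.05 (*Tsacc* and *Pdpk1*). In 2 of the 7 both KO values were below both control values (12.1% of all tested genes) and in 3 both were above, close to the 38.6% of all tested genes. The median log2 fold change was 0.23. After median-ratio scaling 2 of the 7 were lower and 1 higher, where 22.3% and 23.1% of all tested genes were. The lowest was *Tsacc*, which encodes a co-chaperone that joins HSP90 to TSSK6. It was at 206 and 212 TPM in controls 1 and 2, which were close together, and at 99.1 and 113 TPM in KO 1 and 2, both lower (-0.97, adjusted p = 0.310 from limma). *Tsks*, the TSSK substrate, was at 3.29 and 5.02 TPM in the controls against 5.49 and 6.11 TPM in the KO libraries (0.42, adjusted p = 0.641 from limma). The highest was *Pdpk1* at 40.1 and 23.5 TPM in the controls against 64.7 and 61.5 TPM in the KO libraries (1.01, adjusted p = 0.321 from limma), and it was 1.39 without control 1 and 0.64 without control 2. *Odf2*, an outer dense fibre gene and the other lower one, was at 754 and 303 TPM in the controls against 216 and 277 TPM in the KO libraries (-0.96, but -0.31 without control 1 and -1.62 without control 2), and it was named after its values were seen. *Tssk5* was at 0.62 TPM or less in each library and was not tested.

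*Camk4* encodes CaMKIV, a kinase that acts on CREM in spermatids, and from an inner promoter calspermin, a calmodulin-binding protein of the testis. Gene-level TPM does not separate the products. *Camk4* was at 0.49 TPM in control 1, 1.5 TPM in control 2, 0.73 TPM in KO 1 and 0.58 TPM in KO 2. Both KO values lay between the controls, and with a mean of 0.825 TPM the gene was not tested. In the fit with no filter its log2 fold change was -0.22 (adjusted p = 0.801 from limma). Of 19 other calmodulin kinase pathway genes, 18 were tested, 0 passed an FDR of 0.05 in limma and 1 was at an unadjusted p under 0.05 (*Crebbp*). Without overlap 1 of the 18 was lower and 5 were higher, shares below the 12.1% and 38.6% of all tested genes. After median-ratio scaling 4 were lower, close to the 22.3% of all tested genes, and 2 higher, where 23.1% were. The median log2 fold change was 0.15. The lowest was *Camk2n1*, an inhibitor of CaMKII, at 31.5 and 7.28 TPM in the controls against 3.10 and 4.55 TPM in the KO libraries (-1.78, adjusted p = 0.382 from limma). Control 1 set much of this value, which was -0.80 without control 1 and -2.77 without control 2. The highest was *Crebbp*, the CREB coactivator, at 19.2 and 8.64 TPM in the controls against 31.9 and 35.1 TPM in the KO libraries (1.31, adjusted p = 0.329 from limma), and it was 1.84 without control 1 and 0.77 without control 2. *Crem* itself was at 91.5, 52.7, 70.2 and 85.5 TPM in control 1, control 2, KO 1 and KO 2, so its groups overlapped.

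Marker genes of germ cell stages and somatic cells differed in level between libraries. The summed TPM of 14 pachytene markers was 9698 and 4734 in controls 1 and 2 and 3667 and 5042 in KO 1 and 2. Control 1 was the highest and control 2 lay within the KO range. In 7 of the 14 both KO values were below both control values (12.1% of all tested genes) and in 1 they were above (38.6%). After median-ratio scaling 10 of the 14 were lower and 1 higher, where 22.3% and 23.1% of all tested genes were. The sum of the 11 leptotene and zygotene markers analysed was 2827 and 3367 TPM in the controls against 5373 and 5714 TPM in the KO libraries. In 9 of the 11 both KO values were above both control values, where 38.6% of all tested genes were. After median-ratio scaling 7 were higher and 1 lower, where 23.1% and 22.3% of all tested genes were. Spermatogonial markers summed to 467 and 992 TPM in the controls against 839 and 766 TPM in the KO libraries, which overlapped.

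Markers of round spermatids, in which most of the 9 genes are used, gave the sums set beside *Ppp3r2*, and 4 of 12 were tested. Without overlap 2 were lower and 2 higher, where 12.1% and 38.6% of all tested genes were. *Gapdhs*, among the higher, was barely apart, at 1.37 and 0.92 TPM in the controls against 1.41 and 1.42 TPM in the KO libraries. *Acrv1*, *Catsper1*, *Lyzl1* and *Spaca7* were at 0.35 TPM or less in every library. Elongating spermatid markers summed to 9.05 to 20.7 TPM, and *Prm1* and *Tnp1* were at 1.48 TPM or less in every library. Transcripts of somatic cell markers were also present. Leydig markers summed to 3603 TPM in control 1, 19.4 TPM in control 2, 392 TPM in KO 1 and 606 TPM in KO 2, and macrophage markers to 1574, 15.6, 1296 and 931 TPM. Both were far lower in control 2 than in the other libraries. Sertoli markers summed to 518 and 1168 TPM in the controls against 1004 and 856 TPM in the KO libraries, and peritubular myoid markers to 10.7 to 23.5 TPM. *Ppp1r32*, *Ppp1r36* and *Ppp1r42* followed the order of the round spermatid sum, as *Ppp3r2* did, and most of that sum came from *Acr* and *Actl7b*. Some pachytene markers had this order too, among them *Spag6*, *Ldhc*, *Pgk2*, *Adam3*, *Nme5* and *Insl6*. *Ldhc* was at 3659, 1819, 768 and 1230 TPM in control 1, control 2, KO 1 and KO 2. Other pachytene markers did not, such as *Piwil1* at 706, 244, 238 and 364 TPM. The part of cell makeup in these differences was not tested.

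**Figure D4:**
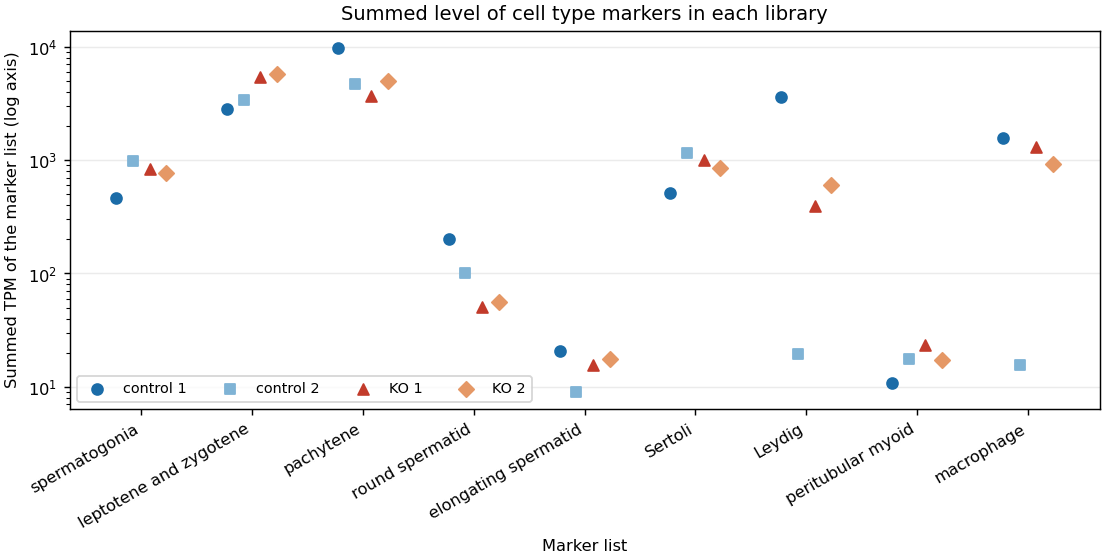
Summed TPM of 9 marker lists (vertical axis, log scale) in each of the 4 libraries; each point is 1 library, with circles and squares for controls 1 and 2 and triangles and diamonds for KO 1 and 2. Leydig and macrophage sums are lowest in control 2 (19.4 and 15.6 TPM), leptotene and zygotene sums are higher in both KO libraries, and pachytene and round spermatid sums are highest in control 1.

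The genes whose pattern over the 4 libraries was most like that of each tested gene were found by the distance between log2(TPM + 1) values centred on each gene's mean. For *Ppp3r2* they were *Pbp2* (distance 0.22), at 180, 60.1, 4.08 and 8.17 TPM in control 1, control 2, KO 1 and KO 2, and *Pgk2* (distance 0.31), the testis phosphoglycerate kinase, at 79.0, 18.4, 1.59 and 2.71 TPM. *Pgk2* is also one of the pachytene markers. The nearest genes of *Ppp3cc* were *Pkd1l2* and *Nudt9*, of *Ppp1cc* *Tada3* and *Dlg4*, of *Tssk1* *1700030M09Rik* and *Sugct*, of *Tssk3* *C030016D13Rik* and *Padi2*, of *Tssk4* *Stat5a* and *Orai3*, and of *Tssk6* *Mei1* and *Nop56*. *Mei1*, a meiotic recombination gene among the leptotene and zygotene markers, was at 12.2 and 22.1 TPM in the controls against 35.8 and 27.7 TPM in the KO libraries. These distances rest on 4 libraries.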

How the data were processed

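RNA of sorted GFP-positive testis cells (day 18) was compared between 2 control *Zfp541*+/- and 2 *Zfp541* KO libraries, grouped by their labels. The authors deposited TPM for each gene. The submitters' processing notes name Trim Galore 0.5.0, cutadapt 1.16, STAR 2.6.0a, RSEM 1.3.1 and build mm10. TPM keeps no depth, so precision due to depth is unknown.

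Genes averaging 1 TPM or more were fitted as log2(TPM + 1) by genotype in R 4.3.3 with limma 3.58.1, letting the variance follow the mean. P-values were adjusted by Benjamini-Hochberg (FDR 0.05). The study's methods name RSEM for the differential test, which was not repeated here. The procedure was tested on simulated data.

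The 9 genes, the pathway lists and the marker lists were chosen with earlier results of these data known. Named genes are the 9 genes, other subunits of their enzymes, *Tsks*, *Tsacc*, the highest and lowest gene of each pathway list, the 2 nearest genes of each tested gene and *Zfp541*. Any other is marked. Positions come from GENCODE vM21, whose coding sequences were translated and aligned with Biopython 1.88 for identities, and promoters from RefSeq. Alternatives covered the pseudocount, filter, scaling, trend, replicate block, FDR and each library left out, and the crossed block was added after seeing the data.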

Additional observations from a re-analysis of the deposited data

How the results depend on the processing

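No gene passed the FDR under another pseudocount, no filter, either scaling, no trend or an FDR of 0.1. With replicate number as a replicate block, 0 genes passed, the median of the 7 tested genes was -0.36 and the adjusted p of *Ppp3r2* from limma was 0.501. No label says that the numbers mark shared litters, and with 2 pairs the deviations of same-numbered libraries correlated at -0.16 across genes. With the numbers crossed, a choice made after seeing the data, 87 genes passed (7 higher, 80 lower), *Ppp3r2* among them (adjusted p = 0.0252 from limma). Leaving out 1 library gave 0 to 6985 genes. The 6985 came without control 1 and 4123 without control 2, where the lone control is assumed to vary like the KO pair, and 0 without either KO library. The median of the 7 genes was -0.69 after median-ratio scaling and -0.43 to 0.0072 with 1 library left out. The reversals were *Ppp1ca* (0.073 after quantile normalization, and -0.60 to 0.58 with 1 library left out) and, without control 1, *Tssk1* (0.044, lowest value -1.07), *Tssk4* (0.0072, lowest -0.29) and *Ppp3ca* (0.35, lowest -0.91). Across these genes and their other alternatives, 261 results kept their direction and side of the threshold and 33 kept their direction and passed it, 32 of them without control 1 or control 2. With an unknown depth, low TPM values such as those of the TSSK genes cannot be given a counting error.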
